A study of Vitis vinifera with 6 samples.

Results

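The genes described here are 7 regulators of tannin synthesis in grapevine, among 29548 genes listed for seed content of young berries. They were chosen by name and identifier, with earlier results of these data known. They are the R2R3-MYB genes MYBPA1 (VIT_15s0046g00170), MYBPA2 (VIT_11s0016g01320), MYBPAR (VIT_11s0016g01300), MYB5a (VIT_08s0007g07230) and MYB5b (VIT_06s0004g00570), the bHLH gene MYC1 (VIT_07s0104g00090) and the WD40 gene WDR1 (VIT_16s0098g00870). The identifiers place them on chromosomes 15, 11, 11, 8, 6, 7 and 16. All plants were F1 hybrids of Red Globe and Crimson Seedless, grown in 1 field. The seed traces came from 3 seedless hybrids (sdi+), in which seeds start to form and then stop, a condition called stenospermocarpy. The seeds came from 3 seeded hybrids (sdi-). Both were taken 4 weeks after anthesis from berries of 10 to 12 mm, and 1 library stands for 1 hybrid, with seed content of 12 to 50 of its fruits combined. Seedless replicates 1 to 3 are called traces 1 to 3 below, and seeded replicates 1 to 3 are called seeds 1 to 3. The word Seededless stands in the titles of the seeded libraries, but the remaining labels give them as seeds of seeded hybrids, and every direction below rests on those.

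Tannins, or proanthocyanidins, are flavan-3-ol polymers that fill cells of the seed coat and give grape seeds their astringency. The genes for their synthesis are switched on by a complex of 3 kinds of protein. An R2R3-MYB factor recognises the promoter, a bHLH factor binds DNA beside it, and a WD40 protein holds the complex together. In grapevine MYBPA1, MYBPA2 and MYBPAR are known activators of the tannin branch, MYB5a and MYB5b act on several flavonoid branches, MYC1 is a bHLH partner of these MYB factors, and WDR1 is related to TTG1 of Arabidopsis.

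Levels are in RPKM, in which reads are divided by the length of the gene model and by a scaled library total, so levels of different genes may be set side by side. The reads recovered from the steps of these values came to between 6306552 and 9381702 per library. Whole reads were recovered for each of the 7 regulators. Trace 1 stood apart from the other traces. Its profile correlated with theirs at 0.847 and 0.862 across genes, against 0.944 between traces 2 and 3. With the seed libraries traces 2 and 3 correlated at 0.866 to 0.889, above their values with trace 1. Trace 1 correlated with the seed libraries at 0.728 to 0.743, and each regulator is therefore given with and without trace 1. VviAGL11 (VIT_18s0041g01880), a MADS-box gene of ovule and seed coat identity, was used to check the labelled tissue. Its RPKM was 47.5, 197 and 177 across traces 1 to 3, against 272, 288 and 287 across seeds 1 to 3. Every trace lay below every seed library, so this level is not independent of class and is no neutral measure of tissue. The summed level of 3 genes of coloured skin (UFGT, MYBA1 and MYBA2) was at most 0.173 RPKM in traces and 0.372 RPKM in seeds, with MYBA2 listed at 0 in all 6 libraries. These genes are switched on when berries colour, so their level does not show whether young skin was present.

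MYBPA1 and MYBPA2 fell in seedless traces, and the other 5 regulators did not pass the test. Limma on log2(RPKM + 1), with p-values adjusted over 18749 genes, thus called 2 of 7 regulators, both lower in traces, where 12.3% of all tested genes were called in either direction and 5.10% as falls. None of the 7 rose, against 7.18% of tested genes, although 1 had an unadjusted p under 0.05 upward (WDR1), and voom on recovered reads also called 0 rises. The libraries of the 2 classes did not overlap for 3 of the 7, MYBPA1 and MYBPA2 lower and WDR1 higher in traces, against 39.5% of tested genes in either direction, 20.5% lower and 19.0% higher. The median log2 fold change of the 7 was -0.08, against -0.04 over all tested genes.

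**Figure D1:**
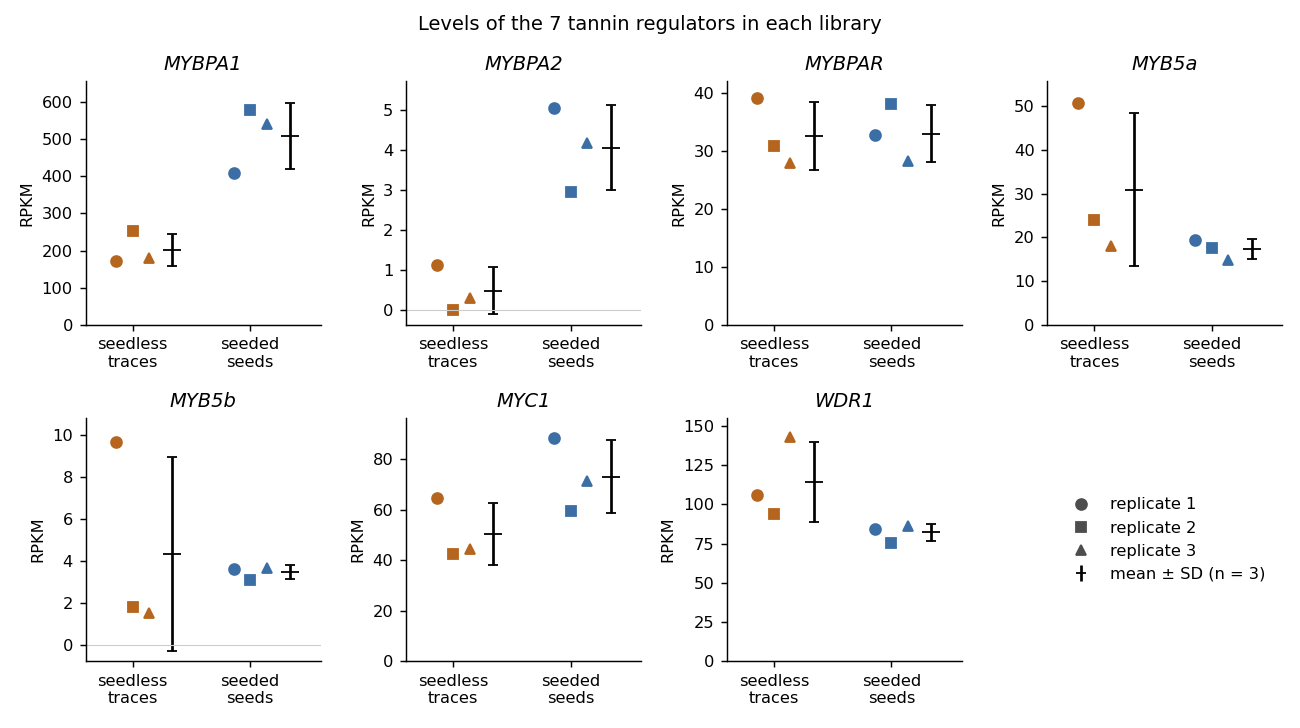
RPKM of the 7 regulators in each library, with seedless traces at the left and seeded seeds at the right of each panel, one marker per library, and the mean ± SD of 3 libraries beside them. MYBPA1 and MYBPA2 are lower in every trace library than in every seed library, WDR1 is higher in every trace library, and MYB5a and MYB5b are highest in trace 1 (50.8 and 9.69 RPKM).

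MYBPA1, the activator best known from tannin synthesis in grape seeds, was the most abundant of the 7 in every library. It measured 173, 252 and 180.1 RPKM across traces 1 to 3, against 409.7, 578 and 540.2 RPKM across seeds 1 to 3. These values rest on 1507 to 2399 reads in traces and 4071 to 6812 reads in seeds. All traces lay below all seeds, and the trace mean was 0.397 times the seed mean (202 ± 43.8 RPKM in traces and 509 ± 88.2 RPKM in seeds; SD, n = 3 each). The log2 fold change was -1.34 (SE 0.23, limma adjusted p = 0.0179), with a 95% interval of -1.88 to -0.80. It was -1.24 without trace 1 (limma adjusted p = 0.0228). Without trace 3, seeds 2 or seeds 3 the threshold was missed (limma adjusted p = 0.0511, 0.0779 and 0.0784), at log2 fold changes of -1.26, -1.24 and -1.29. In whole seed content, fewer cells of a type and less RNA per cell cannot be told apart. VviAGL11 was lower in each trace than in each seed library as well, with a log2 fold change of -1.24 that missed the threshold (limma adjusted p = 0.161), or -0.59 without trace 1, which passed (limma adjusted p = 0.0373). Its part in the fall of MYBPA1 was not tested. The log2 ratio of MYBPA1 to VviAGL11, chosen after the values were seen and not tested, was 1.85, 0.36 and 0.03 across traces 1 to 3 and 0.59, 1.00 and 0.91 across seeds 1 to 3. The classes overlapped in this ratio through trace 1 only, while traces 2 and 3 lay below all seeds.

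MYBPA2, a relative of MYBPA1 best known from the young berry skin, was scarce in both classes. It had 1.13, 0 and 0.307 RPKM across traces 1 to 3, which are 8, 0 and 2 reads. It had 5.04, 2.94 and 4.18 RPKM across seeds 1 to 3, from 39, 27 and 31 reads. The 0 in trace 2 allows a level of up to 0.406 RPKM (3 reads, counting error only). All traces were below all seeds, with means of 0.478 ± 0.583 RPKM in traces and 4.05 ± 1.06 RPKM in seeds (SD, n = 3 each). The log2 fold change was -1.82 (SE 0.35, limma adjusted p = 0.0246), and -2.12 without trace 1 (limma adjusted p = 0.00866). At so few reads the size of the change depended on the scale. It was -3.46 with a pseudocount of 0.1 RPKM and -3.68 with voom on recovered reads, both just outside the threshold (limma adjusted p = 0.0568 and 0.0529). Leaving out trace 2 or 3, or any 1 of the seeded libraries, also lost the call (limma adjusted p = 0.0507 to 0.0928).

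MYBPAR, another tannin activator, did not separate the classes. It measured 39.1, 30.8 and 27.9 RPKM across traces 1 to 3, against 32.8, 38.1 and 28.2 RPKM across seeds 1 to 3. The means of 32.6 ± 5.81 RPKM in traces and 33.0 ± 4.98 RPKM in seeds differed by less than either spread (SD, n = 3 each). Its log2 fold change of -0.02 had a 95% interval of -0.46 to 0.42 (limma adjusted p = 0.944). The difference of this change from that of MYBPA1 was not tested. Without trace 1 the change was -0.16 (limma adjusted p = 0.549). Its sign turned under quantile normalization and without trace 2 or 3 or seeds 2. By identifier MYBPAR and MYBPA2 are near neighbours on chromosome 11, with VIT_11s0016g01310 between them. That gene was listed at 0 in 5 libraries and at 0.203 RPKM in trace 2. Of 12 listed genes in the surrounding range of identifiers 10 were tested and 1 passed, MYBPA2, where 12.3% of all tested genes passed. Reads shared between similar MYB genes could not be checked.

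MYB5a, which activates flavonoid genes in several berry tissues, measured 50.8, 24.1 and 18.0 RPKM across traces 1 to 3, against 19.5, 17.5 and 14.9 RPKM across seeds 1 to 3. Trace 1 exceeded traces 2 and 3 combined, and trace 3 lay within the range of the seeds. The log2 fold change of 0.67 did not pass (95% interval -0.20 to 1.55, limma adjusted p = 0.254), and it was 0.26 without trace 1 (limma adjusted p = 0.392). MYB5b, its close relative, was low, at 9.69, 1.79 and 1.53 RPKM across traces 1 to 3 and 3.64, 3.07 and 3.68 RPKM across seeds 1 to 3. The traces lay on both sides of the seeds, with trace 1 above them and traces 2 and 3 below. On the log2 scale the difference was -0.08, with a wide 95% interval of -1.40 to 1.25 (limma adjusted p = 0.939). Without trace 1 it was -0.75 and did not pass (limma adjusted p = 0.0603), and without trace 2 or 3 it turned to 0.22 and 0.29.

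MYC1, the bHLH partner, measured 64.5, 42.5 and 44.3 RPKM across traces 1 to 3, against 88.3, 59.5 and 71.3 RPKM across seeds 1 to 3. Only trace 1 reached into the range of the seeds. The log2 fold change of -0.53 did not pass (95% interval -1.07 to -0.00, limma adjusted p = 0.157). It was -0.72 without trace 1, again outside the threshold (limma adjusted p = 0.0505), and -0.68 when libraries were weighted, the 1 setting in which it passed (limma adjusted p = 0.0394; 0.0394 to 0.353 over its alternatives). WDR1, the WD40 scaffold, measured 106, 93.7 and 143 RPKM across traces 1 to 3, against 84.6, 75.7 and 86.0 RPKM across seeds 1 to 3, so that every trace was above every seed library. Its log2 fold change of 0.45 did not pass (95% interval 0.01 to 0.90, limma adjusted p = 0.153), nor under any alternative run (limma adjusted p of 0.111 to 0.346). It was 0.50 without trace 1 (limma adjusted p = 0.152).

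The order of the levels was similar in both classes. In traces it ran from MYBPA1 over WDR1, MYC1, MYBPAR, MYB5a and MYB5b to MYBPA2, and only the ranges of MYBPAR and MYB5a overlapped between neighbours. In seeds it ran from MYBPA1 over WDR1, MYC1, MYBPAR, MYB5a and MYBPA2 to MYB5b. There WDR1 and MYC1 overlapped, and so did MYBPA2 and MYB5b. MYBPA1 made up 63.3%, 81.6% and 79.1% of the summed RPKM of the 5 MYB genes across traces 1 to 3, against 87.0%, 90.4% and 91.4% across seeds 1 to 3. MYB5a made up 18.5%, 7.80% and 7.89% across traces 1 to 3, against 4.15%, 2.74% and 2.53% across seeds 1 to 3. The classes did not overlap for either share. MYBPAR made up 14.3%, 9.97% and 12.2% across traces 1 to 3, against 6.98%, 5.96% and 4.77% across seeds 1 to 3, and these did not overlap either. MYBPA1 thus had the smaller share in traces and MYB5a and MYBPAR the larger ones, with trace 1 at the far end for all 3. MYBPA2, at few reads, made up 0.411%, 0% and 0.135% across traces 1 to 3, against 1.07%, 0.46% and 0.707% across seeds 1 to 3. Its share was thus also smaller in every trace, while the classes overlapped for the share of MYB5b. Among single tested genes 39.5% did not overlap in level, and no such percentage was computed for shares of a sum. Shares of a sum are tied, so a lower MYBPA1 by itself raises the other shares. In level MYBPAR changed by -0.02 and MYB5a by 0.67 on the log2 scale, and neither passed the threshold. The sum of the 5 MYB genes was 274, 309 and 228 RPKM across traces 1 to 3, against 471, 639.5 and 591 RPKM across seeds 1 to 3. Of the 7 regulators, 5 had their highest trace value in trace 1, and the exceptions were MYBPA1 and WDR1. Over all 6 libraries 3 of the 7 were highest in trace 1. The share of all tested genes that were highest there was not computed, so these counts are not particular to the regulators.

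**Figure D2:**
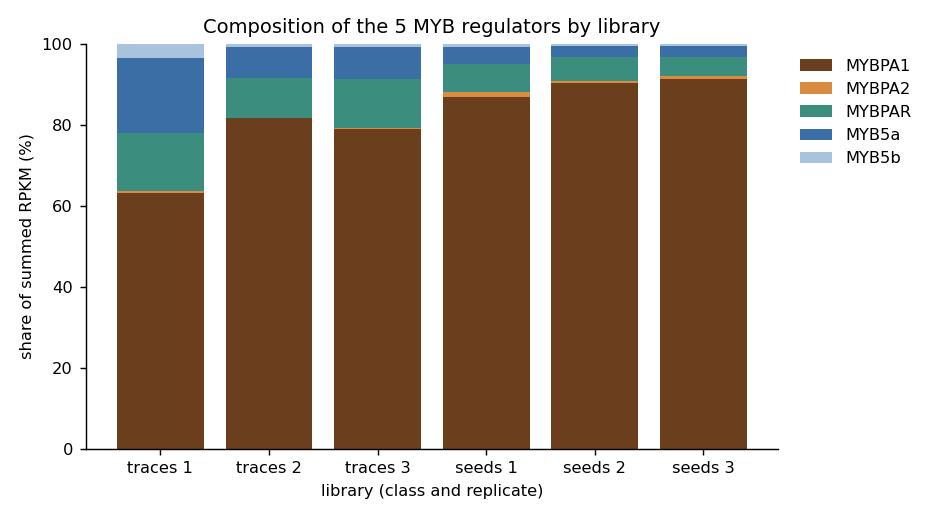
Share of each of 5 MYB genes in their summed RPKM, in percent, one bar per library, with the 3 seedless trace libraries at the left and the 3 seeded libraries at the right. MYBPA1 takes 63.3% to 81.6% in traces and 87.0% to 91.4% in seeds, and the share of MYB5a is largest in trace 1 (18.5%).

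Ratios within a library ask whether one gene moved unlike another, and scaling between libraries leaves them nearly untouched. Of 6 ratios, 3 separated the classes completely. Among single tested genes 39.5% did so, and no such share was computed for pairs of genes. The log2 ratio of MYB5a to MYBPA1 averaged -2.78 ± 0.89 in traces and -4.79 ± 0.41 in seeds, which is a difference of 2.01 (SD, n = 3 each). Trace 1 was highest of the traces at -1.75, against -3.34 and -3.25 in traces 2 and 3, and without it the difference was 1.50. The ratio of MYC1 to WDR1 was -0.71, -1.12 and -1.67 across traces 1 to 3 and 0.06, -0.34 and -0.27 across seeds 1 to 3, so that WDR1 stood above MYC1 in every trace, by less in seeds 2 and 3, and below it in seeds 1. This ratio averaged -1.17 ± 0.48 in traces and -0.18 ± 0.21 in seeds, a difference of -0.99. The ratio of MYB5b to MYB5a averaged -2.78 ± 0.46 in traces and -2.03 ± 0.23 in seeds, a difference of -0.75. Each of these gave p = 0.1 in an exact permutation test, two-sided, the smallest that 3 against 3 allows, and an adjusted p of 0.2 over the 6 ratios, so none could pass. The classes overlapped for MYBPA2 over MYBPA1, with a difference of -0.49 (exact permutation p = 0.5, adjusted p = 0.5), or -2.12 with a pseudocount of 0.1 RPKM and -0.89 (without trace 1) to -0.07 (without trace 2) with 1 library omitted.

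**Figure D3:**
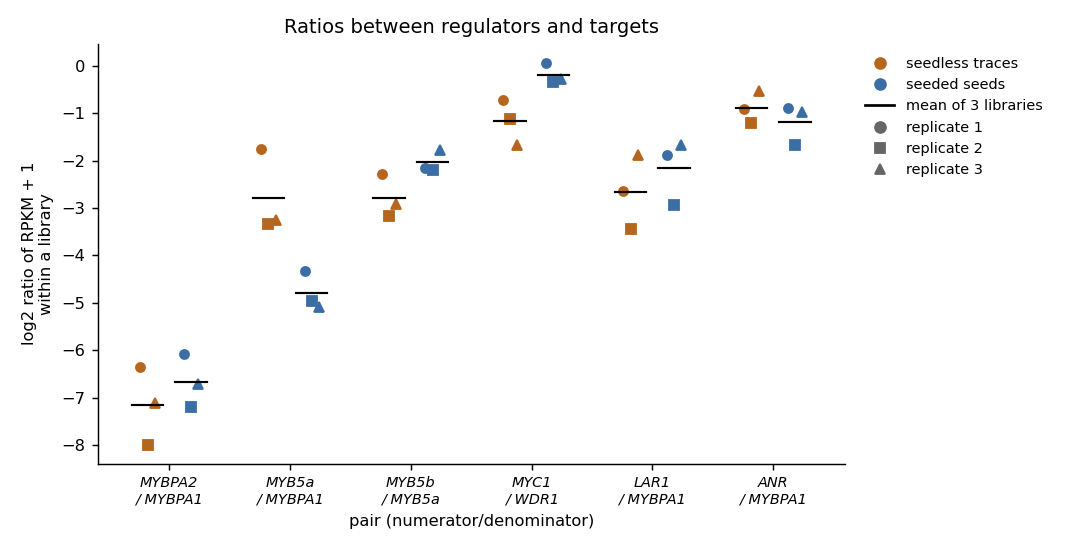
Log2 ratios of RPKM + 1 between pairs of genes within each library, with seedless traces left of seeded seeds for each pair, one marker per library, and a line at the mean of 3 libraries. The classes stand apart for MYB5a over MYBPA1, MYB5b over MYB5a and MYC1 over WDR1, and overlap for the other pairs.

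LAR1 and ANR, which make the building units of tannins and which MYBPA1 is known to activate, both fell in traces. LAR1, leucoanthocyanidin reductase, measured 26.9, 22.1 and 48.1 RPKM across traces 1 to 3, against 111, 74.7 and 169.5 RPKM across seeds 1 to 3. ANR, anthocyanidin reductase, measured 92.2, 109 and 124 RPKM across traces 1 to 3, against 220.5, 180.3 and 275 RPKM across seeds 1 to 3. All traces lay below all seeds for both. LAR1 changed by -1.84 on the log2 scale (SE 0.38, limma adjusted p = 0.0309) and ANR by -1.04 (SE 0.21, limma adjusted p = 0.0267). Both calls were lost without trace 2 or any 1 of the seeded libraries (limma adjusted p of 0.0584 to 0.0949), and ANR also lost its call under quantile normalization (-0.88, limma adjusted p = 0.0535). Set against MYBPA1 in the same library, the classes overlapped. The log2 ratio of LAR1 to MYBPA1 differed by -0.50 between traces and seeds and that of ANR by 0.30 (exact permutation p = 0.5 for each, adjusted p = 0.5). With 1 library omitted the first ranged from -0.89 (without trace 3 or seeds 2) to -0.11 (without trace 2) and the second from 0.05 (without seeds 2) to 0.46 (without trace 2). These ratios varied by 0.34 to 0.79 (SD) within a class. LAR2, the second reductase of its kind, measured 75.9, 21.5 and 21.1 RPKM across traces 1 to 3, against 10.4, 12.5 and 6.19 RPKM across seeds 1 to 3. It was thus higher in every trace, yet the difference of 1.70 on the log2 scale did not pass (limma adjusted p = 0.0799), nor did 1.11 without trace 1 (limma adjusted p = 0.0505), while 1.36 with library weights did (limma adjusted p = 0.0413; 0.0413 to 0.221 over its alternatives).

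Of 25 listed genes around the 7 regulators, 21 were tested, of which 8 fell, 2 rose and the other 11 passed in neither direction, where 5.10% of all tested genes fell and 7.18% rose. Their median log2 fold change was -0.89, against -0.04 over all tested genes. Names of these genes were recalled from the published gene catalogue. RefSeq holds 21 of the 25 symbols, 20 of them on the chromosome of the identifier, and ANR has an unplaced identifier. All 8 falls were enzymes, out of 14 tested with a median of -1.14. Upstream of the reductases these were CHS1, CHS2, CHI2, F3H1, F3'H and DFR, which build and modify the flavonoid skeleton. In that order they changed by -1.73, -1.27, -1.23, -1.32, -1.31 and -1.47 on the log2 scale (limma adjusted p of 0.00674 to 0.0443). LDOX, which supplies the substrate of ANR, stood at 951 ± 40.1 RPKM in traces and 1822 ± 373 RPKM in seeds (SD, n = 3 each) and missed the threshold with a fold change of -0.92 in log2 units (limma adjusted p = 0.057). LDOX did pass in 5 of 16 alternatives, among them voom on recovered reads (limma adjusted p = 0.0268), by which 10 enzymes fell and 0 rose. No enzyme rose in the unweighted limma fit, although LAR2 had an unadjusted p under 0.05 upward, and LAR2 passed with library weights. Without seeds 1, 2 or 3 the list had 1, 2 and 1 falls, and without trace 1, 2 or 3 it had 7, 5 and 6, while the 2 rises passed each time. Quantile normalization gave 5 falls and no filter gave 6. CHS2 lost its call in 8 of 16 alternatives, CHI2 in 6, CHS1 and F3H1 in 3 each, DFR in 2 and F3'H in 0.

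Of the 7 other regulators and transporters tested, 2 rose and none fell by limma, where 7.18% of all tested genes rose and 5.10% fell, with 0 falls at an unadjusted p under 0.05 and 0 by voom on recovered reads. MYBC2-L3 (VIT_14s0006g01620), a C2-type MYB repressor whose symbol is not among those of RefSeq, measured 12.4, 13.7 and 13.4 RPKM across traces 1 to 3, against 0.66, 2.07 and 0.491 RPKM across seeds 1 to 3. The traces were all above the seeds, and the gene rose, by 2.85 (log2; SE 0.31, limma adjusted p = 0.00615) or by 2.89 without trace 1. The seeds held 7, 26 and 5 reads of it, and the size depended on the scale, at 3.74 with a pseudocount of 0.1 RPKM and 3.77 by voom on recovered reads, both past the threshold (limma adjusted p = 0.00996 and 0.012). MYBC2-L3 made up 7.91% to 11.7% of the summed RPKM of the 4 listed MYB repressors in traces and 0.469% to 1.31% in seeds. The log2 ratio of MYBC2-L3 to MYBPA1, chosen after the values were seen and not tested, was 4.19 higher in traces than in seeds. The other 3 repressors, MYBC2-L1, MYB4a and MYB4b, differed by 0.37, -0.49 and 0.58 on the log2 scale, none past the threshold (limma adjusted p = 0.699, 0.331 and 0.375). Without trace 1 these were -0.20, -0.17 and 0.08. AM1, a vacuolar transporter of the MATE family, was the second rise, at 38.0 ± 8.33 RPKM in traces and 7.43 ± 2.11 RPKM in seeds (SD, n = 3 each), or 2.22 on the log2 scale (limma adjusted p = 0.0069). MYCA1, a bHLH gene of the same kind as MYC1, measured 33.5, 14.1 and 14.2 RPKM across traces 1 to 3, against 13.3, 12.4 and 10.7 RPKM across seeds 1 to 3, higher in every trace, although its log2 fold change of 0.60 did not pass (limma adjusted p = 0.272) and was 0.21 without trace 1 (limma adjusted p = 0.408). MYC1 held 65.8% to 75.8% of the summed RPKM of MYC1 and MYCA1 in traces and 82.8% to 86.9% in seeds. MYBF1, an activator of flavonol synthesis, stood at 4.22 ± 1.35 RPKM in traces and 3.17 ± 2.00 RPKM in seeds (SD, n = 3 each). The anthocyanin activators MYBA1 and MYBA2, the anthocyanin enzyme UFGT and the glutathione S-transferase GST4 were below the filter.

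**Figure D4:**
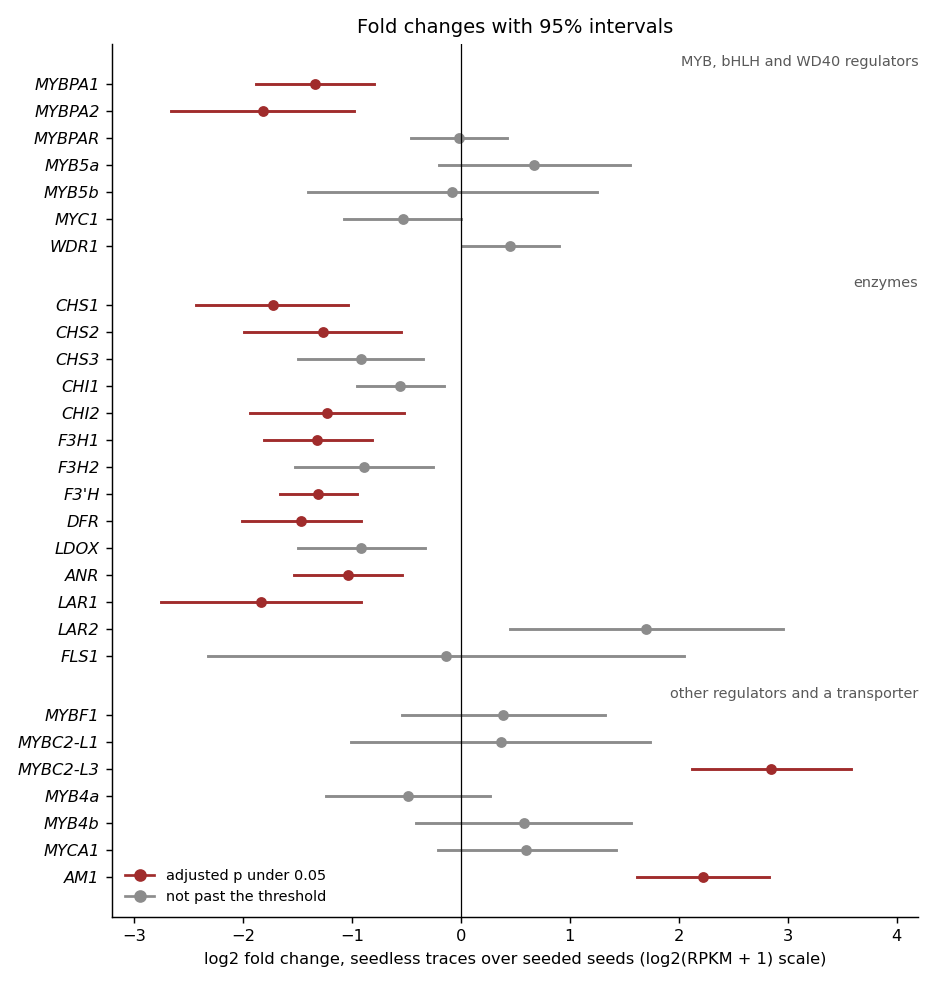
Log2 fold changes of seedless traces over seeded seeds with 95% intervals for the 7 regulators, 14 enzymes, and 6 other regulators with a transporter (AM1), on the log2(RPKM + 1) scale. MYBPA1, MYBPA2 and 8 enzymes lie below 0 and pass at an adjusted p under 0.05, and MYBC2-L3 and AM1 lie above 0 and pass.

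The listed gene most like each regulator was taken as the one with the smallest root mean square difference between profiles of log2(RPKM + 1) over the 6 libraries, each centred on its mean. For MYBPA1 it was F3H1, at 0.19, with 29 of 18748 other tested genes closer. The closest of all tested genes were VIT_18s0001g04920 and VIT_17s0000g00030, at 0.070 and 0.107, for which no name was used here. For MYBPA2 it was F3'H, at 0.47, with 122 genes closer. For MYB5a it was MYCA1, at 0.13, with 15 genes closer, and both share a high value in trace 1. For MYB5b it was the repressor gene MYB4b, at 0.39, with 221 genes closer. MYC1 was nearest to the chalcone isomerase gene CHI1, at 0.25, with 698 genes closer, while its 2 closest tested genes were at 0.071 and 0.076. MYBPAR and WDR1 had no near match in the list. Their best values were 0.36 to MYC1 and 0.40 to MYBF1, with 8163 and 6249 genes closer. These are descriptions over 6 libraries that share the split between the classes.

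**Figure D5:**
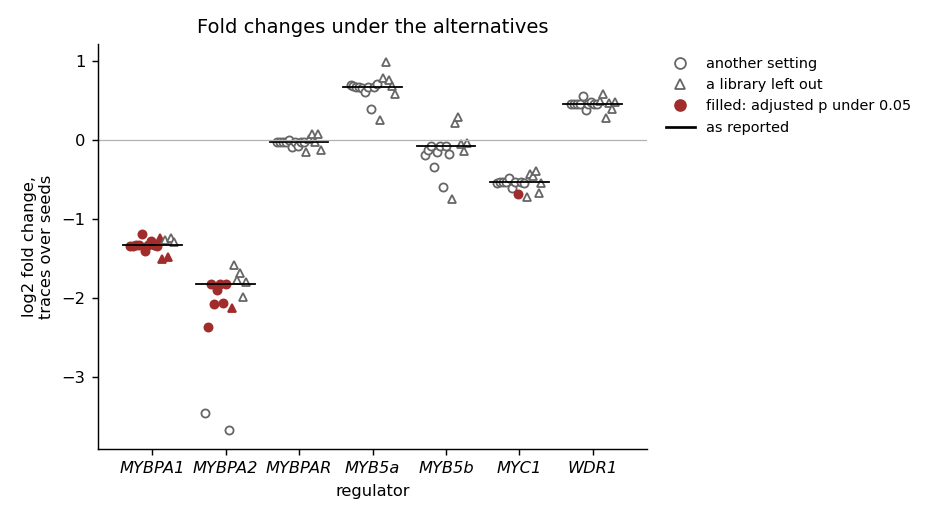
Log2 fold changes of the 7 regulators, traces over seeds, under the alternative settings (circles) and with 1 library left out (triangles), with a line at the reported value and filled markers at an adjusted p under 0.05. MYBPA1 stays between -1.51 and -1.18, MYBPA2 ranges from -3.68 to -1.58, and MYBPAR and MYB5b cross 0.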

How the data were processed

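The authors deposited 1 table of RPKM values with a column per library and identifiers of the 12X V1 annotation. Tools listed in the submitters' processing notes, without roles, are edgeR 2.2.6, HTSeq 0.5.4p5 and TopHat2 2.0.13. For genome build and strand setting, nothing is given in the sources used here. Of 29548 rows 12 held a malformed value, leaving 29536.

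Whole reads were recovered from the RPKM steps for 24109 of 24536 genes above 0 (98.3%; chance fit under 0.01). The denominators behind the RPKM values were 1.004 to 1.006 times the recovered totals scaled by TMM (trimmed mean of M values), and 0.959 to 1.07 times the unscaled totals, so the deposited values were already scaled between libraries. Libraries differed from each other by 12.8 to 123 chi-square units per degree of freedom.

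The test took genes that reached 1 RPKM in 3 or more libraries. Values were log2(RPKM + 1), a scale on which changes of low genes are compressed, and the tool was limma 3.58.1 in R 4.3.3 (eBayes with trend, two-sided, Benjamini-Hochberg over 18749 genes, threshold 0.05). Since no hybrid was used for more than 1 library, p-values reflect differences between plants and technical ones together. Alternatives changed the pseudocount, filter, scaling, variance model and weights, added a block, used voom and left out each library. Figures used Python 3.11.15 and matplotlib 3.10.9.

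Regulators, gene list and tests were chosen with earlier results of these data known. The naming rule took the 7 regulators, ANR, LAR1, LAR2, LDOX, DFR, listed repressors and bHLH genes, listed genes past the threshold and the closest profiles. The names of MYBPA2, MYBPAR, MYB5a, MYB5b, F3H2, MYBA2, MYBC2-L3 and AM1 are not in the RefSeq table used (ASM3070453v1), in which no 12X identifier occurs. The transporter AM3 was left out of the list because its identifier was not settled. The closest genes of MYC1 are given without their identifiers. No promoter or protein sequences were used here.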

Additional observations from a re-analysis of the deposited data

How the results depend on the processing

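The fold change of MYBPA1 ranged from -1.51 to -1.24 over the fits that omit 1 library, that of MYBPA2 -2.12 to -1.58, that of MYBPAR -0.16 to 0.08 and that of MYB5b -0.75 to 0.29. MYBPAR was at 0.00 under quantile normalization. MYBPA2 was at -3.46 with a pseudocount of 0.1 and at -3.68 by voom, and MYC1 was past the threshold at -0.68 with library weights. With 5 RPKM as the filter MYBPA2 and MYB5b were not tested. Of 110 comparisons of the 7 regulators with an alternative, 93 left the sign and the call as they were, 10 ended the call, 1 added a call and 6 turned the sign without passing. For the other genes, to which the alternatives were applied after the data were seen, 302 of 351 left sign and call alone, 31 ended a call, 14 added one and 4 turned the sign. FLS1 was at 0.74 with library weights and between -0.78 and 0.99 with 1 library omitted, and MYBC2-L1 at -0.20 to 0.94. Limma called 2303 genes, 1346 of them rises and 957 falls. Quantile normalization gave 1057 rises and 1041 falls, and median scaling 1261 rises and 1285 falls. The count was 3603 with library weights and between 429 and 2909 with 1 library omitted, and the count of listed pathway genes called was 10, or 3 to 9 in such fits. The cause of these moves was not tested. A fit that omits 1 library also rests on fewer libraries. With a replicate block 1714 genes passed, and MYBPA1 and MYBPA2 kept their calls (limma adjusted p = 0.0277 and 0.0349). Same-numbered libraries come from different hybrids, so the numbers are not taken to pair the libraries. Their deviations from the class means nevertheless correlated at 0.07, 0.18 and 0.10, each highest for its own number. Libraries of unlike number had -0.12 to 0.03. Whether same-numbered libraries share a batch was not tested. The 6 tested ratios between genes kept their direction with each pseudocount and each library omitted, and the other ratios were not recomputed. An observed 0 allows a level of up to about 3 reads, or 0.324 to 0.456 RPKM on a gene model of 1 kb, which bears on MYBPA2 in trace 2.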
